A study of Mus musculus with 2 samples.

Results

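The genes that encode the proteasome, its immune-type variant and its assembly factors were compared between marrow-derived macrophages lacking TIPE1 and control macrophages. The members are all genes of the deposited table whose symbol is Psm followed by a letter from a to g and a digit. Of 55 such rows, 5 pseudogenes with a name ending in -ps, -ps1 or -ps2 were left out, none of which had a read, and 50 genes of the 46095 in the table remained. They include Psmc3ip, which carries the name but encodes a recombination cofactor and not a subunit. The study addressed how TIPE1, the product of Tnfaip8l1, bears on macrophage polarization. The KO library was made from C57BL/6 macrophages with the genotype label TIPE1-/-. The series' design gives the mice as LyzM-Cre; Tipe1f/f, in which Cre is expressed from the Lyz2 locus in myeloid cells. The WT library was made from C57BL/6 macrophages labelled wild type, which the design describes as Tipe1f/f without Cre, so both groups carried the floxed allele. Both cultures were grown from femur and tibia marrow in 100 ng/ml M-CSF for 5 days, and there was 1 library per genotype. No age is given, and nothing says how many mice went into a culture.

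The proteasome degrades proteins that are tagged with ubiquitin. Its barrel-shaped 20S core is built of stacked alpha and beta rings, and 3 of the beta subunits carry the active sites. A 19S cap on the barrel recognises ubiquitin, removes it and unfolds the substrate with a ring of ATPases. Interferon induces replacement active-site subunits, which form the immunoproteasome, and the PA28 cap. Immunoproteasomes are abundant in haematopoietic cells and cut proteins into peptides that suit MHC class I molecules, which links them to antigen presentation by macrophages.

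The KO library held 15815956 counted reads and the WT library 11782664. With 1 library per genotype no test was possible, the differences described have no check by replicates, and the 95% intervals printed in parentheses cover counting error alone. KO and WT stand for these libraries. Reads are given as counts per 1e6 reads (CPM) after scaling by the TMM method, and ratios are KO over WT. Tnfaip8l1 had 3 reads in KO and 21 in WT. Stromal RNA differed between the libraries. The 14 fibroblast and stromal markers summed to 164 CPM in KO and 1842 CPM in WT, 12 of 13 tested ones were at least 1.5-fold lower, and Tagln was listed at 0 in both. The 12 macrophage markers were all present, with a median log2 ratio of -0.02, and 1 was higher and 2 lower at that threshold. Lyz2, whose locus carries the Cre in the KO mice, was 1.86-fold lower (1.85 to 1.88). Neutrophil markers summed to 498 CPM in KO and 684 CPM in WT, and B and T cell markers to 35.7 CPM in KO and 32.9 CPM in WT. Dendritic cell markers summed to 196 CPM in KO and 77.6 CPM in WT, of which Itgax, a gene that macrophages also express, made up 193 CPM in KO and 72.0 CPM in WT. Ccr7 was 3.53-fold lower (1.99 to 6.56), and the other 5 dendritic markers had at most 11 reads in a library. Fewer cells of a type and less RNA per cell cannot be told apart in such bulk samples, and the part of stromal RNA in the results below was not tested.

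Of the 50 genes, 47 reached the mean of 1 CPM required here. A gene was called when its ratio was at least 1.5-fold and its interval excluded 1, which held for 6.47% of all 12495 genes tested in the higher direction and 7.23% in the lower. Among the proteasome genes 3 were called higher, Psme2, Psme2b and Psmb9, and 0 lower. Psmb9 reached 1 CPM in KO alone and so passed the limit through the library where it is high, which bears on its call. At 1.2-fold, 7 of the 47 were higher and 1 lower, against 14.3% higher and 13.1% lower over all tested genes. The count of higher members is thus close to the background at that threshold, and the count of lower ones is below it. The 50 genes together took up 0.352% of the reads of the KO library and 0.339% of the WT library. Their summed level was 3612 CPM in KO and 3309 CPM in WT, a ratio of 1.09 (1.08 to 1.11). With the same TMM scaling, the summed level of all genes in the table already had a ratio of 1.05.

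**Figure D1:**
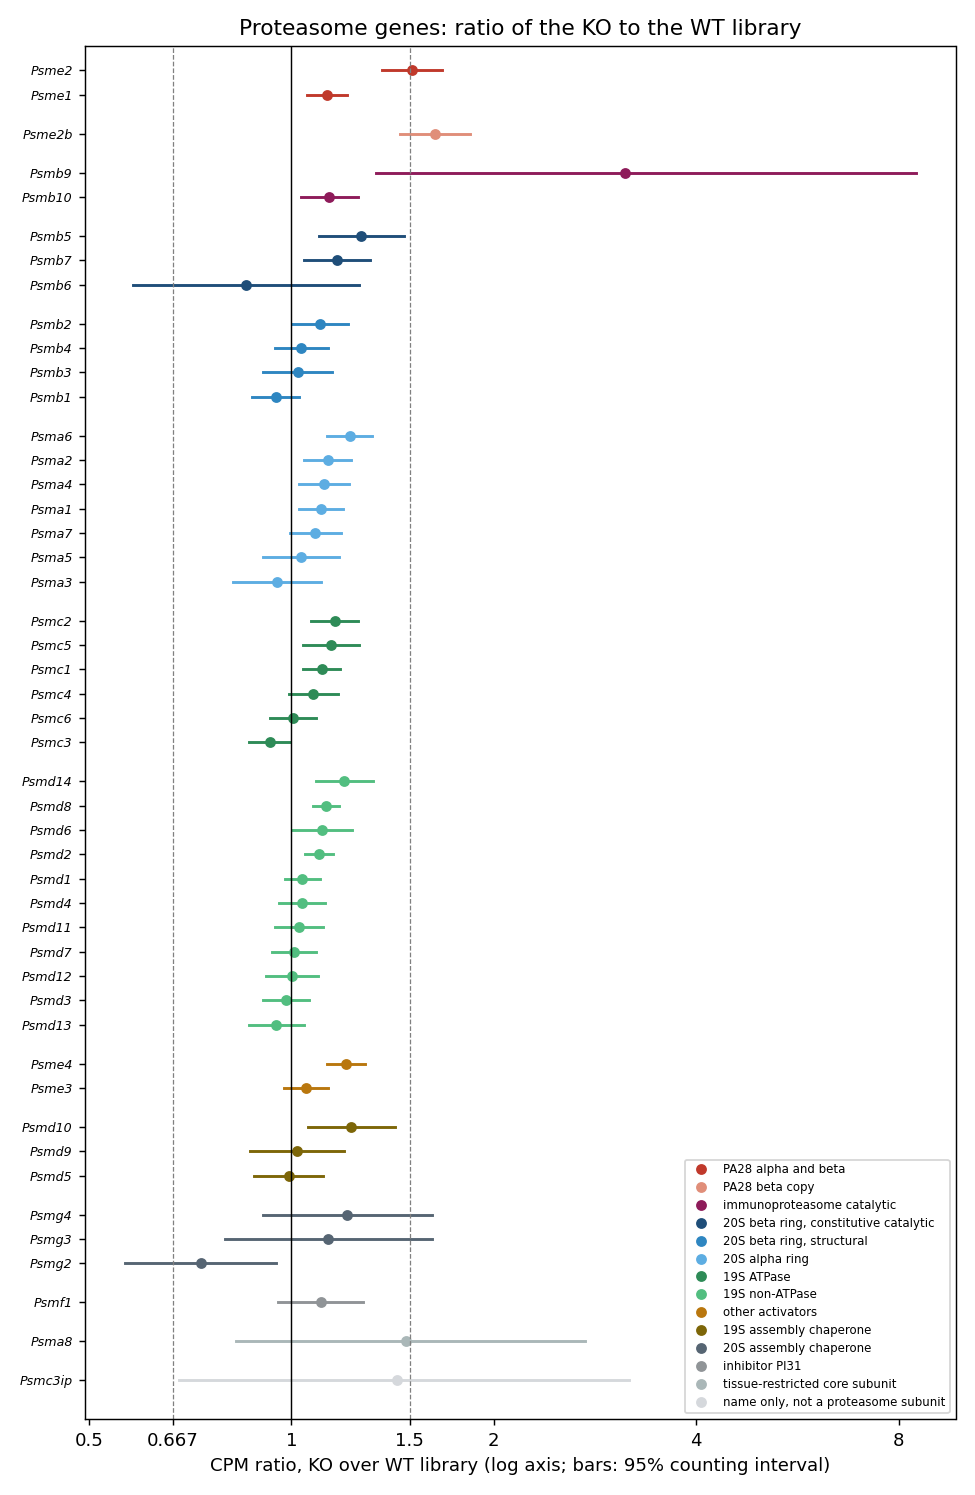
Ratio of CPM, KO over WT, on a log axis for the 47 tested proteasome genes, grouped by role. Points are ratios and bars 95% counting intervals, the solid line marks equal levels and the dashed lines 1.5-fold. Psme2, Psme2b and Psmb9 lie past the right dashed line, while the core and cap subunits lie between 0.855 and 1.27.

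The clearest difference was in PA28 beta. Psme2, which encodes the beta subunit of the interferon-induced PA28 cap (GRCm38 chromosome 14, 55587440 to 55591101, minus strand), had 1111 reads in KO and 575 in WT. That is 72.0 CPM in KO and 47.6 CPM in WT, 1.51-fold higher (1.37 to 1.68). With scaling by total counts the ratio was 1.44 (1.30 to 1.59), under the threshold. Psme2b (chromosome 11, 48945345 to 48946410, minus strand), a near-identical intronless copy of Psme2, had 850 reads in KO and 407 in WT. Its level was 55.1 CPM in KO and 33.7 CPM in WT, 1.63-fold higher (1.45 to 1.84).

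The pair share most of their coding sequence. In the principal GENCODE transcripts both coding sequences are 717 bases long without the stop codon, and 5 bases differ, an identity of 99.3%. The 60-base stretch with the most differences, coding bases 484 to 543, is printed for both genes to show how little separates their reads, with the 3 differing bases in capitals.
Psme2: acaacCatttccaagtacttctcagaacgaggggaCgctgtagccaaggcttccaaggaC
Psme2b: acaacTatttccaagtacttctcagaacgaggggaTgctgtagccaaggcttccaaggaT
Of all runs of 50 bases in the transcripts of Psme2b, 69.3% also occur in transcripts of other genes, mainly Psme2, and of those of Psme2 28.3%. How reads matching both copies were counted is not known here, and the separate values are uncertain. Added together, they had 1961 reads in KO and 982 in WT, 127 CPM in KO and 81.3 CPM in WT. The ratio of the sum was 1.56 (1.45 to 1.69). This value does not depend on how reads counted once were split between the copies. It could change if reads matching both copies were dropped or counted for both.

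Psme1, which encodes the partner subunit PA28 alpha and lies next to Psme2 (chromosome 14, 55578494 to 55581527, plus strand), differed less. It had 2047 reads in KO and 1419 in WT, 133 CPM in KO and 117 CPM in WT, a ratio of 1.13 (1.05 to 1.21). The counting intervals of Psme1 and Psme2 do not overlap, so within these libraries the genes of the PA28 cap differed from each other by more than counting error. Per kilobase of principal transcript, Psme1 stood at 119 CPM in KO and 106 CPM in WT, and Psme2 at 74.9 CPM in KO and 49.5 CPM in WT.

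The region upstream of Psme2 is shown because Psme2 was the called member with the most reads. It is the RefSeq window before the start (GRCm38.p6, chr14:55591114-55591351, minus strand), without the bases that lie in an annotated exon.
Psme2: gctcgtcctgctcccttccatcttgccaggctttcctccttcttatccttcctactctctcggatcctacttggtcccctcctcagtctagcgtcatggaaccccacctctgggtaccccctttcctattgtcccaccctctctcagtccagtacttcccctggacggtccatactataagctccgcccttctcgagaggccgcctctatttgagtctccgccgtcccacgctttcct
The 250 bases before each start were searched on both strands for the core of the interferon-stimulated response element (GAAA, any 2 bases and GAAA again) and for TTCNNNGAA, the gamma-activated site. The first is held by 2.98% and the second by 7.02% of all 32851 promoter windows in the RefSeq table. Windows were found for 42 of the 50 genes. None of the 5 immunoproteasome genes held the first motif, Psmb8 alone held the second, and the Psme2 window above has no capitals because it held neither. Of the other members, Psmd4, Psmd9 and Psmb3 held the first motif and Psmg1 the second. Only exact matches within these windows were counted, so a window without a match does not show that the gene lacks an interferon element. In the stretch around the Psmb8 match (chr17:34198088-34198116, plus strand) the site is in capitals.
Psmb8: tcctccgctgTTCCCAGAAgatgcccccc
The longest run of bases that the windows upstream of Psme2 and Psme2b share is 8, although their coding sequences are nearly the same.

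The 3 immunoproteasome active-site genes were not measured equally well. Psmb10 encodes MECL-1, which takes the place of the trypsin-like subunit encoded by Psmb7, and lies on chromosome 8 (105935728 to 105938392). It had 1005 reads in KO and 691 in WT, 65.1 CPM in KO and 57.2 CPM in WT, a ratio of 1.14 (1.03 to 1.26). Psmb9, which encodes LMP2, had 28 reads in KO and 7 in WT, 1.81 CPM in KO and 0.58 CPM in WT, 3.13-fold higher (1.34 to 8.49). Its mean of 1.197 CPM passed the limit through the KO library only. Psmb8, which encodes LMP7, had 18 reads in KO and 9 in WT, with a ratio of 1.57 (0.668 to 3.96). Its mean of 0.956 CPM was under the limit, so it was not tested, and its interval holds 1.

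Psmb8 and Psmb9 lie in the MHC region of chromosome 17, at 34198195 to 34201454 and 34182030 to 34187330, and their counts were low together with those of other genes there. Per kilobase, Psmb8 stood at 0.717 CPM in KO and 0.458 CPM in WT, and Psmb9 at 1.34 CPM in KO and 0.429 CPM in WT. Psmb10 stood at 49.7 CPM per kilobase in KO and 43.6 CPM per kilobase in WT. Nearby, Brd2, a bromodomain gene used in most cell types, had 3 reads in KO and 11 in WT. The class I gene H2-D1 and the cytokine gene Tnf were listed at 0 in both libraries. Not all genes there were low, since the class I gene H2-K1 had 762 reads in KO and 623 in WT. Outside the region, B2m on chromosome 2, whose product pairs with class I chains, had 72695 reads in KO and 56796 in WT. Of 122 protein-coding genes there, from Daxx (start 33909404) to Gnl1 (start 35979955) on chromosome 17, 12 reached a mean of 10 CPM (9.84%), against 7858 of 20460 protein-coding genes in all (38.4%). The limits of the region were drawn after the low counts were seen, and the cause of the low counts was not tested. The low level of Psmb8 and Psmb9 is therefore not read as a low content of their RNA. Tap1, which encodes a subunit of the peptide transporter and starts 225 bases from the start of Psmb9 on the other strand, had 54 reads in KO and 20 in WT, 2.11-fold higher (1.24 to 3.73). Tap1 overlaps 5.79% of the exon bases of Psmb9 and is the main gene with which Psmb9 shares runs of 50 bases (4.19%), so some reads of these genes may be mixed. Tap2, the gene of the other subunit, had 40 reads in KO and 32 in WT, a ratio of 0.979 (0.599 to 1.61). Tnfaip8l1 itself is on the same chromosome, 22.0 Mb beyond Psmb8.

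**Figure D2:**
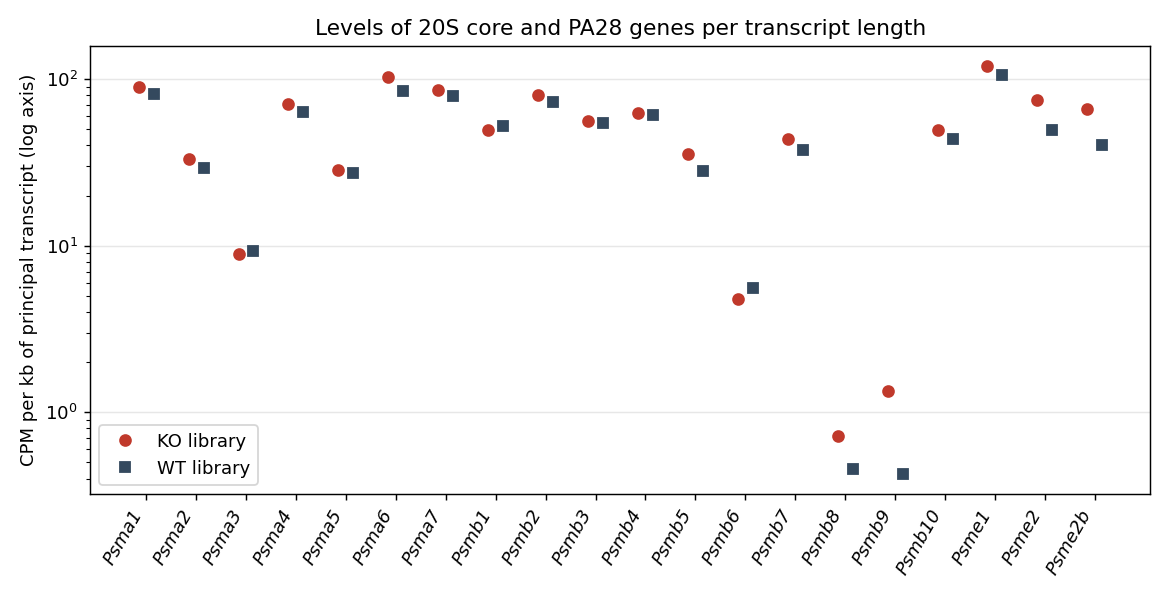
CPM per kilobase of principal transcript, on a log axis, for core, immunoproteasome and PA28 genes in the KO library (circles) and the WT library (squares), 1 library each. Psmb8 and Psmb9 stand at or below 1.34 and Psmb6 at 4.79 in KO and 5.60 in WT, while Psmb10 and most core genes lie between 27.5 and 103.

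Each immunoproteasome subunit was set against the constitutive subunit it replaces, as reads of the first over reads of the second, a ratio that depends on no library scaling. For Psmb10 over Psmb7 it was 1.28 in KO and 1.31 in WT, a change of 0.973-fold (0.838 to 1.13). This was the pair with the most reads, and its interval ends at 1.13-fold toward the immune form. For Psmb9 over Psmb6 it was 0.475 in KO and 0.130 in WT, a change of 3.63-fold (1.40 to 10.7) that rests on 7 reads of Psmb9 in the WT library. Psmb6 was also low for a core gene, with 59 reads in KO and 54 in WT. For Psmb8 over Psmb5 it was 0.0366 in KO and 0.0297 in WT, a change of 1.23-fold (0.517 to 3.15), which is not resolved at this depth. Over the 3 pairs together, immunoproteasome genes had 1051 of 2388 reads in the KO library, 44.0% (42.0 to 46.0, exact Clopper-Pearson interval), and 707 of 1590 reads in the WT library, 44.5% (42.0 to 46.9). Psmb10 had 1005 of the immunoproteasome reads in KO and 691 in WT. These are shares of reads and not of molecules, since transcript lengths differ. The cause of the low counts of Psmb8, Psmb9 and Psmb6 was not tested. A wider share counted Psme1 and Psme2 with Psmb8, Psmb9 and Psmb10, and all constitutive beta subunits on the other side. It was 43.1% (42.2 to 44.1) in the KO library and 39.6% (38.5 to 40.8) in the WT library. This is not a share of the immune form, since Psme1 and Psme2 encode a cap and Psmb1 to Psmb4 encode structural subunits. Psme2, whose separate count is uncertain (above), had 1111 reads in KO and 575 in WT.

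**Figure D3:**
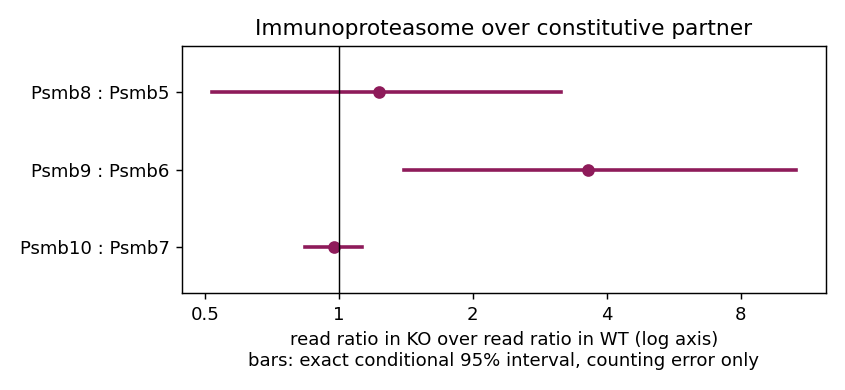
Reads of each immunoproteasome subunit over its constitutive partner in the KO library, divided by the same in the WT library, on a log axis with exact 95% counting intervals. Psmb10 over Psmb7 lies at 0.973 with a narrow interval, Psmb9 over Psmb6 at 3.63 and Psmb8 over Psmb5 at 1.23 with wide ones.

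Over the 5 immunoproteasome genes the median log2 ratio was 0.42, which is the value of Psmb8, and without Psmb8 and Psmb9 it was 0.19. The median over all 12495 tested genes was 0.01. All 5 ratios were above 1, as were those of 51.8% of tested genes and of 25 of 31 constitutive subunits. Among the 5, Psmb8 was not tested and Psmb9 passed the limit through KO only. The ratios of Psmb10 (1.14) and Psme1 (1.13) lay within the range of the constitutive subunits, 0.855 to 1.27.

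The constitutive subunits differed little and mostly one way. Of 31 core and cap subunits, none was called at 1.5-fold and 2 (6.45%) were higher at 1.2-fold, and the median log2 ratio of the 31 was 0.11. The log2 ratio was above 0 for 25 of the 31, and with scaling by total counts for 16. With TMM it was above 0 for 51.8% of all tested genes and for 55.1% of those averaging 10 CPM or more. Relative to the median of all tested genes, which was 0.01 with TMM and -0.06 with total counts, 23 of the 31 were above in both cases. The interquartile range of their log2 ratios was 0.16, against 0.29 for the 8379 genes that averaged 10 CPM or more. Those genes were not matched to the subunits in level, and counting error spreads the ratios of genes with fewer reads more widely. Among those well-expressed genes 15.8% were higher and 10.3% lower at 1.2-fold, and of the 40 proteasome genes at that level 6 were higher and 0 lower. At 1.5-fold the shares of well-expressed genes were 4.92% higher and 2.66% lower, and 2 and 0 of the 40 proteasome genes passed.

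**Figure D4:**
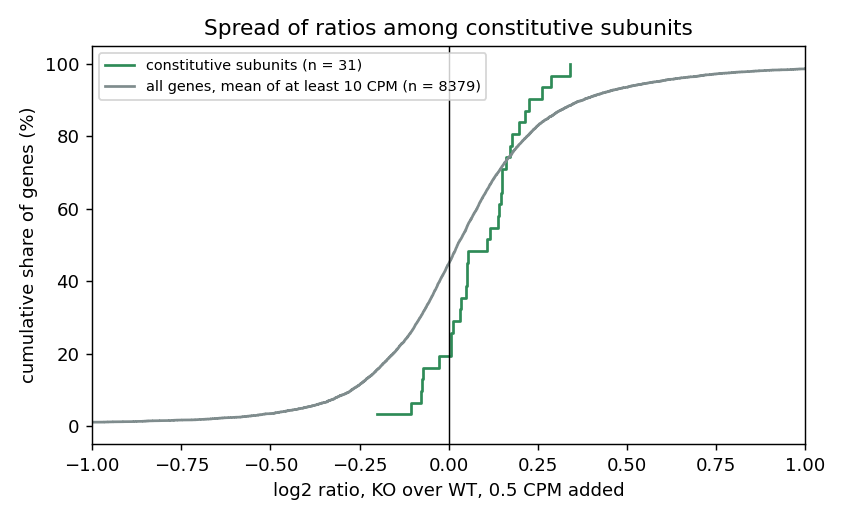
Cumulative share of genes by log2 ratio, KO over WT, for the 31 constitutive subunits and for the 8379 genes that averaged 10 CPM or more. The constitutive subunits run from -0.20 to 0.34 in a steeper curve with a median of 0.11, against 0.02 for the other curve. The sets were not matched in level.

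In the core, the constitutive active sites gave both the highest and the lowest ratio. Psmb5, the chymotrypsin-like subunit and the target of proteasome inhibitors such as bortezomib, had 492 reads in KO and 303 in WT, 31.9 CPM in KO and 25.1 CPM in WT, 1.27-fold higher (1.10 to 1.47). Psmb7 stood at 50.9 CPM in KO and 43.5 CPM in WT, a ratio of 1.17 (1.05 to 1.31), and its exons overlap those of Nek6. Psmb6, the caspase-like subunit, had 59 reads in KO and 54 in WT, a ratio of 0.855 (0.581 to 1.26). Every core particle holds each ring position in equal number, but the product of Psmb9 can take the position of Psmb6. Psmb6 reached only 4.79 CPM per kilobase in KO and 5.60 in WT. The median of the 14 constitutive core genes was 52.6 CPM per kilobase in KO and 53.4 in WT. Psma3 was also low, at 8.88 CPM per kilobase in KO and 9.34 in WT. It shares 15.4% of its runs of 50 bases with other genes, and Gm13835, the main one, had 315 reads in KO and 247 in WT beside 390 in KO and 321 in WT for Psma3. For Psmb6 the shared part was 1.05%, and the reason for its low count was not tested.

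The window upstream of Psmb5 is shown because Psmb5 had the largest ratio of the constitutive subunits (GRCm38.p6, chr14:54618023-54618245, minus strand, without exon bases).
Psmb5: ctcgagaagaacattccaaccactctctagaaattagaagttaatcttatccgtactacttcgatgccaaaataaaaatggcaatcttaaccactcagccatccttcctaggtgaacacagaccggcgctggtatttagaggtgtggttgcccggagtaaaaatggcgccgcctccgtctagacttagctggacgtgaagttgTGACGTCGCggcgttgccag
The capitals mark TGACNNNGC, a motif of the kind bound by NRF1 and NRF2, which was searched on both strands. It is held by 10.2% of all windows and by 4 of 25 constitutive subunits with a window, Psmb5, Psmb6, Psmc6 and Psmd12. Their ratios ran from 0.855 to 1.27, the same limits as over all 31 constitutive subunits. A stretch matching CCAAT on either strand was in 33.8% of all windows and those of 10 of the 25. Psmb5 also shares 54.1% of its runs of 50 bases with other genes, of which Gm3375 had 2 reads in KO and 5 in WT.

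The remaining core subunits were near level. In the alpha ring, which gates entry to the barrel, Psma6 had the highest ratio, with 108 CPM in KO and 88.1 CPM in WT, 1.22-fold higher (1.13 to 1.32). With total counts its ratio was 1.162, under the threshold. Psma3 had the lowest ratio of the ring, with a value of 0.951 (0.818 to 1.11), and the 7 alpha genes had a median log2 ratio of 0.15. Among the structural beta subunits Psmb2 had the highest ratio, with 68.7 CPM in KO and 62.3 CPM in WT, a ratio of 1.10 (1.004 to 1.21). Psmb1 had the lowest, with 87.0 CPM in KO and 91.8 CPM in WT, a ratio of 0.947 (0.874 to 1.03).

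The 17 subunits of the 19S cap had a median log2 ratio of 0.05, and 0 of them were called at 1.2-fold in either direction with TMM. Among all genes averaging 10 CPM or more, 15.8% were higher and 10.3% lower at that threshold. Among the ATPases, which unfold the substrate and open the gate, Psmc2 had the highest ratio, with 97.3 CPM in KO and 83.8 CPM in WT, a ratio of 1.16 (1.07 to 1.26). Psmc3 had the lowest ratio of the ATPases, with 111 CPM in KO and 119 CPM in WT, 1.08-fold lower (1.003 to 1.16). With DESeq2 size factors its interval held 1, and its exons overlap those of Slc39a13, so reads of these genes may be mixed. Among the subunits without ATPase activity, Psmd14 had the highest ratio. It encodes the metalloprotease that cuts ubiquitin chains off the substrate, and had 1077 reads in KO and 703 in WT, a ratio of 1.199 (1.09 to 1.32) that was just under 1.2-fold. It passed that threshold with DESeq2 size factors at 1.207 (1.10 to 1.33) and with the KO library thinned at 1.229 (1.11 to 1.36). Psmd4, a ubiquitin receptor, stood at 93.1 CPM in KO and 89.8 CPM in WT, a ratio of 1.04 (0.958 to 1.12). Psmd13 had the lowest ratio, with 63.3 CPM in KO and 66.6 CPM in WT, a ratio of 0.949 (0.864 to 1.04). Psmd8 had the highest level per kilobase in the cap, 198 CPM in KO and 175 CPM in WT, and Psmd11 the lowest, 30.4 CPM in KO and 29.7 CPM in WT.

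The other activators and the inhibitor showed small differences. Psme4, which encodes the PA200 activator, had 2350 reads in KO and 1528 in WT, 152 CPM in KO and 127 CPM in WT, 1.204-fold higher (1.13 to 1.28). With total counts the ratio was 1.146, under the threshold. Psme3, which encodes the nuclear PA28 gamma, stood at 105 CPM in KO and 99.7 CPM in WT, a ratio of 1.05 (0.974 to 1.13). Psmf1, the gene of PI31, an inhibitor of the core in vitro, stood at 29.3 CPM in KO and 26.5 CPM in WT, a ratio of 1.11 (0.956 to 1.28).

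Assembly chaperones went in both directions. Psmd10, which encodes gankyrin, a chaperone of the cap's base, was at 30.1 CPM in KO and 24.5 CPM in WT, 1.23-fold higher (1.06 to 1.42), and with total counts 1.168, under the threshold. Psmd5, another chaperone of the base, was lowest of its class at a ratio of 0.991 (0.880 to 1.12). Psmg2, which helps to build the alpha ring, had 118 reads in KO and 126 in WT, 1.36-fold lower (1.05 to 1.77), and was the only member lower at 1.2-fold. Its partner Psmg1 had 2 reads in KO and 11 in WT, too few to be tested, and its ratio was 0.142 (0.0153 to 0.652). Psmg4 was highest of the core chaperones at a ratio of 1.21 (0.906 to 1.62) and Psmg3 stood at 1.13 (0.796 to 1.62).

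Members made mainly in other tissues had few reads. Psma8, a testis subunit, had 36 reads in KO and 19 in WT, and Psmb11, a thymus subunit, had 1 read in KO and 0 in WT. Psmc3ip had 22 reads in KO and 12 in WT, and the intervals of Psma8 (0.829 to 2.74) and Psmc3ip (0.680 to 3.18) held 1.

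Other genes of the pathway were read from lists, with members counted by the same rule. Over all tested genes that rule called 6.47% higher and 7.23% lower at 1.5-fold. Of 12 tested subunits and factors outside the Psm names, 0 were called at 1.5-fold and the median log2 ratio was 0.11. Ecpas, a scaffold that binds proteasomes (listed as AI314180), was at 172 CPM in KO and 139 CPM in WT, 1.24-fold higher (1.16 to 1.32). Zfand5, a proteasome-binding activator, was 1.22-fold higher (1.14 to 1.29). Usp14, a cap-bound deubiquitinase, stood at 78.7 CPM in KO and 67.6 CPM in WT, and Pomp, the core's maturation factor, at 76.0 CPM in KO and 67.2 CPM in WT.

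Genes for ubiquitin, its activating enzymes and shuttles had a median log2 ratio of 0.07, with 0 of 14 called at 1.5-fold. Uba6, an alternative ubiquitin-activating enzyme, was 1.22-fold higher (1.09 to 1.36), and Rps27a, a ubiquitin fusion gene with 8.62 CPM in KO and 6.95 CPM in WT, had a ratio of 1.24 (0.936 to 1.65). Nploc4, a cofactor of the unfoldase VCP, stood at 120 CPM in KO and 105 CPM in WT.

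The NRF1 list holds NRF1, a factor that turns on proteasome genes when proteasome capacity falls short, its partners, and genes that process or degrade it. Of its 12 genes 1 was called higher and 0 lower, with a median log2 ratio of 0.19. The count of higher genes is near the 6.47% of all tested genes. Nfe2l1, which encodes NRF1 itself, had 5477 reads in KO and 2794 in WT, 355 CPM in KO and 231 CPM in WT, 1.53-fold higher (1.47 to 1.61). Sel1l, part of the machinery that moves NRF1 out of the endoplasmic reticulum, was 1.30-fold higher (1.24 to 1.37), and the small MAF gene Mafk 1.24-fold higher (1.10 to 1.41). Fbxw7, a ubiquitin ligase subunit that targets NRF1, was 1.21-fold lower (1.05 to 1.40). Ddi2, the protease that activates NRF1, stood at 42.0 CPM in KO and 43.0 CPM in WT, and Ngly1, which deglycosylates it, at 19.5 CPM in KO and 20.9 CPM in WT.

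**Figure D5:**
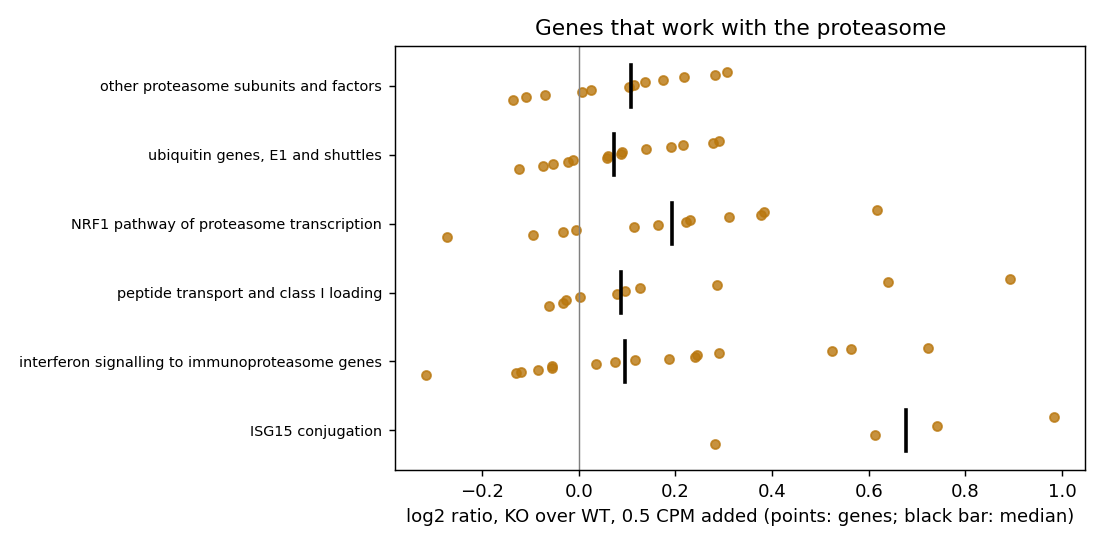
Log2 ratio, KO over WT, of the tested genes of each pathway list, with 1 point per gene and a black bar at the median. The medians lie between 0.07 and 0.19 apart from ISG15 conjugation at 0.68.

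Genes downstream of the immunoproteasome were mixed. Of 10 tested genes of peptide transport and class I loading, 2 were called higher, against 6.47% of all tested genes. They were Tap1 (above) and the tapasin gene Tapbp, at 16.1 CPM in KO and 10.2 CPM in WT, 1.58-fold higher (1.27 to 1.98). Erap1, which trims peptides in the endoplasmic reticulum, was 1.22-fold higher (1.14 to 1.30), and the chaperone genes Calr and Canx had ratios of 1.09 and 1.07. B2m had a ratio of 1.002 (0.991 to 1.01), and the median log2 ratio of the list was 0.09.

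Among 16 genes of interferon signalling 1 was called higher and 0 lower, with a median log2 ratio of 0.10. The count of higher genes is near the 6.47% of all tested genes. Irf7 was at 592 CPM in KO and 359 CPM in WT, 1.65-fold higher (1.59 to 1.71). Stat2, which carries the interferon signal to the nucleus, was 1.44-fold higher (1.38 to 1.504), and Irf8 was 1.24-fold lower (1.19 to 1.30). Irf1, a factor known to act on immunoproteasome genes, stood at 128 CPM in KO and 108 CPM in WT, a ratio of 1.18 (1.10 to 1.27). Nlrc5, the class I transactivator, stood at 138 CPM in KO and 127 CPM in WT, a ratio of 1.08 (1.01 to 1.16). ISG15 is a ubiquitin-like protein that interferon induces, and of the 4 tested genes of its conjugation 3 were called higher, with a median log2 ratio of 0.68. Herc6, its ligase in mice, was at 123 CPM in KO and 62.1 CPM in WT, 1.99-fold higher (1.82 to 2.16), and the protease gene Usp18 and the conjugating enzyme gene Ube2l6 were 1.68-fold and 1.54-fold higher. Uba7, its activating enzyme, was 1.22-fold higher (1.12 to 1.32), and Isg15 itself had 2 reads in KO and 0 in WT.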

How the data were processed

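RNA of 2 macrophage cultures, 1 per genotype, was sequenced, and the values used were the raw read counts per gene symbol that the authors deposited in 1 table with 1 column per library. The submitters' processing notes name HISAT2 and the build GRCm38. Which program counted the reads, on which annotation and with what strand setting, is not given in the sources used here, and overlapping genes or close copies may hold each other's reads. All rows carried a gene name.

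Counts were scaled with TMM (edgeR 4.0.16, R 4.3.3) and given per 1e6 reads of effective library size. Log2 ratios were taken after adding 0.5 CPM, which pulls those of low genes toward 0. Ratios without it carry exact Clopper-Pearson 95% intervals, and the ratio of 2 genes an exact conditional interval (scipy 1.17.1). Reads amplified by PCR and lacking molecular identifiers are not independent, so intervals and floors cover counting error only. A count of 3 equals 0.194 CPM in KO and 0.248 CPM in WT. Genes averaging 1 CPM or more were tested against the fold thresholds of 1.5 and 1.2, and no p-value was computed. The calculation was run on simulated counts with counting error alone and 3-fold changes in genes averaging 10 CPM or more. That run does not bear on replicate spread, PCR copies, shared reads or smaller fold changes.

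The members and lists were chosen with earlier results of these data known. Roles, pathway and marker lists, alternatives (total counts, DESeq2 1.42.0 size factors, no stromal genes in the scaling, other filters and pseudocounts, thinning) and the naming rule were written down together: all immunoproteasome genes and partners, called members, the highest and lowest member of each role, members under 1 CPM, and from each pathway list the 4 genes that differed most among those averaging 5 CPM or more, plus Tap1, Nlrc5, Tnfaip8l1 and Lyz2. Of the genes this rule names, 2 are not reported here. Other names, such as Brd2, H2-D1, Tnf, B2m, Tap2, Psmd4, Psmd8, Psmd11, Irf1, Isg15, Ddi2 and Ngly1, were chosen after their values were seen. Of the listed genes, Paaf1 and Psme3ip1 had no row under those symbols and were not analysed here. Positions and promoters came from RefSeq (GRCm38.p6), and transcripts and lengths from GENCODE vM21 (GRCm38).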

Additional observations from a re-analysis of the deposited data

How the results depend on the processing

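No paired analysis was possible because there was 1 library of each genotype, without any test. Of the 3 members called higher at 1.5-fold, 0 remained when the near end of the interval had to pass 1.5-fold. Without the 4 members that share over 25% of their runs of 50 bases with other genes, 1 remained. It was Psmb9, with 28 reads in KO and 7 in WT, while Psme2 and Psme2b were among the 4 left out. That setting was chosen after the data were seen, as were those without Psmb8 and Psmb9 and with Psmb10 and Psmb7 alone. Of lower members there was 1 with no filter, Psmg1, in place of 0. At 1.2-fold the 7 higher members became 4 with total counts (without Psma6, Psme4 and Psmd10), 8 with DESeq2 size factors or thinning (with Psmd14) and 4 without the sharing members, and the 1 lower member became 2 with no filter and 0 among genes averaging 10 CPM or more. The median log2 ratio of the constitutive subunits was 0.04 with total counts and 0.09 to 0.12 in the other settings, and that of the immunoproteasome genes 0.19 to 0.49. The immunoproteasome share of catalytic reads with Psmb10 and Psmb7 alone was 56.1% in KO and 56.8% in WT. The wider share with PA28 and all constitutive beta subunits, which is not a catalytic share, was 43.1% in KO and moved to 39.6% in WT. Thinning the KO library to the WT total left each of the 3 pair ratios inside its counting interval. Of 147 recomputed ratios of 49 members, 144 stayed within their counting interval with the call kept, and 11 changed direction, all of them with total counts (among them Psme3, Psmd4, Psmd9, Psmd11, Psmc6 and Psmd12). The exceptions, all with total counts, were Psme2, under the threshold at a log2 ratio of 0.52, and Psmd8 and Psmd2, at 0.10 and 0.07. The depth limits Psmb8, Psmb9, Psmb6 and Psmg1, with 2 to 59 reads per library.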
